A study of Carassius auratus with 6 samples.

Results

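Glucagon and other fasting hormones act on the liver through cyclic AMP (cAMP), which activates protein kinase A. Protein kinase A phosphorylates the transcription factor CREB and its relative CREM, and it inhibits the salt-inducible kinases (SIK). Active SIK keep the coactivators CRTC out of the nucleus, so that their inhibition lets CRTC join CREB on its target genes. Among those targets in mammalian liver are PGC-1α, the coactivator encoded by ppargc1a that promotes gluconeogenesis and mitochondrial biogenesis, and the gluconeogenic enzymes themselves. SIK1 and a short CREM form, the repressor ICER, are themselves induced through CREB in mammals and restrain the pathway. These genes are described here in the liver of crucian carp (labelled Carassius auratus), a fish known for tolerating long periods without oxygen, after 12 h of hypoxia.

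The genes were chosen by name. A row of the deposited table belongs to the set if its gene name is sik1, sik2, sik3, crem, creb1, crtc1, crtc2, crtc3, ppargc1a or ppargc1b, with or without a letter for the copy. That gave 35 of the 47544 genes in the table. They comprise 7 copies of sik2, 8 of crem, 5 of creb1, 5 of crtc1, 4 of crtc2, 2 of crtc3, 2 of ppargc1a and 2 of ppargc1b. No row carried the name sik1 or sik3. Crucian carp and goldfish have duplicated genomes, and each copy is given by its name in the table and its NCBI gene identifier. Of the 35 copies 31 are protein-coding in the goldfish reference, 3 are pseudogenes and 1 is a long non-coding RNA. The families were picked with the hypoxia and control values of these same libraries known. Their differences are therefore a description, no p-value is printed for a member, and the count of members past the threshold is evidence of nothing further.

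RNA of liver was sequenced from wild-type fish in 2 groups, 3 libraries labelled hypoxia stress (H12h, 12 h) and 3 labelled control (N). The labels do not say whether each library is a separate fish, so p-values measure the spread between these libraries, which may be technical. Recovered reads per library lay between 15734847 and 22782649. All levels are normalized counts, that is reads divided by a size factor per library and not by transcript length, so levels of different copies are not ranked against each other. All differences are hypoxia minus control in log2 of the normalized count plus 1, ± SE, from a limma fit over 41045 genes whose mean reached 1. A gene is said to have passed the threshold, or to have risen or fallen, when its Benjamini-Hochberg adjusted p over all those genes was under 0.05. Hepatocyte markers were abundant, with summed levels of 1260900 to 2595200 in hypoxia libraries and 1684100 to 2673700 in controls, led by the fibrinogen genes FGA and FGB. Markers of the exocrine pancreas, which in carp lies within the liver, summed to 64031 to 161040 in hypoxia libraries and 18672 to 122410 in controls. Islet markers summed to 414 to 1307 in hypoxia libraries and 56.6 to 407 in controls. Endothelial markers summed to 1756 to 3259 in hypoxia libraries and 1209 to 1526 in controls. The islet and endothelial sums did not overlap between the groups, whereas those of the other 5 of 7 marker lists did. For the exocrine pancreas that overlap came from control replicate 1, at 122410, with control replicates 2 and 3 at 22368 and 18672. The median log2 difference was 2.76 over 15 tested exocrine copies, 1.97 over 10 islet copies and 0.71 over 16 endothelial copies. The part of these cell types in the results below was not tested. In such bulk RNA fewer cells of a type and less RNA per cell cannot be told apart.

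Of the 35 copies 33 passed the filter on low values and were tested, and 10 of these passed the threshold, all higher after hypoxia, where 2.24% of all tested genes passed in either direction and 1.83% as higher. The 10 were 4 sik2, 4 crem, 1 ppargc1a and 1 ppargc1b copy, and 0 of the tested creb1 and crtc copies were among them by limma, edgeR or DESeq2. The groups did not overlap for 18 of the 33, against 24.6% of all tested genes. The median difference over the 33 was 0.76, against 0.0043 over all tested genes. The untested copies were Crem 113080790, a pseudogene with 0, 1 and 1 reads in hypoxia libraries and 0 in each control, and Crtc1 113055161, with 0, 5 and 1 reads in hypoxia libraries and 0, 1 and 0 in controls.

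**Figure D1:**
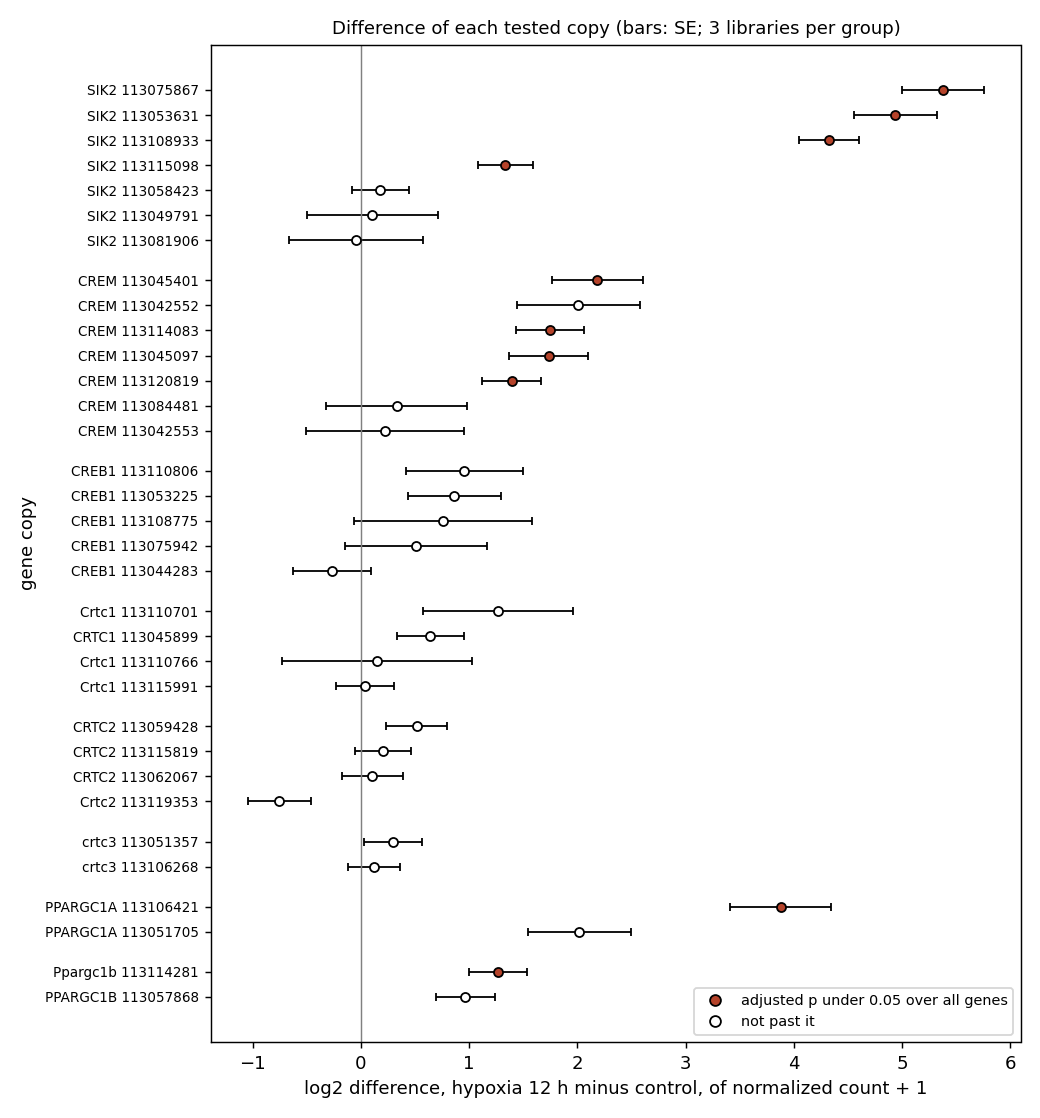
Log2 difference of each of the 33 tested copies, hypoxia 12 h minus control on the log2 scale of the fit, bars giving the SE (3 libraries per group). Filled points passed an adjusted p of 0.05 over all genes. The 3 highest points are sik2 copies, which lie above 4, whereas the crtc copies lie between -0.75 and 1.26.

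The copies named SIK2 are described here by genomic neighbourhood. Copies SIK2 113053631 and SIK2 113108933 stand beside the genes Ing1 and Ube2a in the goldfish reference. Copies SIK2 113058423, SIK2 113115098, SIK2 113049791 and SIK2 113081906 stand beside LAYN, and for the last 3 also PPP2R1B is among the 4 genes on either side. The reference itself names 113115098 sik2b and 113049791 sik2a, both beside LAYN. It gives no gene symbol to the copies beside Ing1, nor to 113058423 and 113081906 beside LAYN. The name SIK2 of the copies beside Ing1 comes from a chicken SIK2 entry in the description column of the table, and whether they are SIK2 or another SIK was not tested. The seventh copy, SIK2 113075867, is a pseudogene that the reference does not place on a chromosome. This grouping was made after the values were seen.

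Both copies beside Ing1 were at least 12 times as high in the lowest hypoxia library as in the highest control library. SIK2 113053631 had 1017, 1855 and 2431 normalized counts in hypoxia replicates 1 to 3, against 35.2, 74.0 and 58.1 in control replicates 1 to 3. Its difference was 4.94 ± 0.38, and the ratio of its group means was 31.7. SIK2 113108933 had 999, 1411 and 1647 in hypoxia libraries and 56.0, 83.2 and 59.1 in controls, a difference of 4.33 ± 0.28. Both rose, and in both hypoxia replicate 1 was the lowest of its group and control replicate 2 the highest of its own. The pseudogene copy SIK2 113075867 had 279, 503 and 688 in hypoxia libraries and 8.79, 11.6 and 10.01 in controls, a difference of 5.38 ± 0.38, and it rose as well. Reads that match several similar copies may have been split or dropped in counting, so the values of these 3 copies are uncertain as values of separate transcripts.

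Of the 4 copies beside LAYN only SIK2 113115098 rose. It had 592, 374 and 513 in hypoxia libraries and 173, 216 and 188 in controls, a difference of 1.33 ± 0.25, with groups that did not overlap. SIK2 113058423 had 546, 560 and 554 in hypoxia libraries and 415, 692 and 406 in controls, so that the hypoxia libraries fell within the range of the controls. Its difference was 0.18 ± 0.26. The copies SIK2 113049791 and SIK2 113081906 differed by 0.11 ± 0.61 and -0.05 ± 0.62, and their groups overlapped. Control replicate 3 of 113049791 was at 16.0, against 84.6 and 84.4 in the other controls.

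Summed over the 7 copies named SIK2, which include those of uncertain identity beside Ing1, levels reached 3490, 4766 and 5905 in hypoxia libraries, against 785, 1180 and 743 in controls. The copies beside Ing1 made up 57.8%, 68.5% and 69.1% of that sum in hypoxia libraries and 11.6%, 13.3% and 15.8% in controls, in counts not adjusted for transcript length. The sum over the 4 copies beside LAYN averaged 1110 ± 101.3 in hypoxia libraries and 771 ± 211 in controls (SD, n = 3 each), and its groups overlapped. The member sik3 is present in the table under another name. Its 4 rows are called zgc:66101, are described as SIK3 homologues, and 1 of them, 113114646, is sik3 in the reference. Their differences spanned -0.33 to 0.20, their groups overlapped, and 0 of 4 passed the threshold. With 2.24% of all tested genes past it and groups apart for 24.6%, these counts say little. Of the 4 rows, 113058822, 113114646 and 113114647 overlap other genes in the reference, and the strand used in counting is not known.

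**Figure D2:**
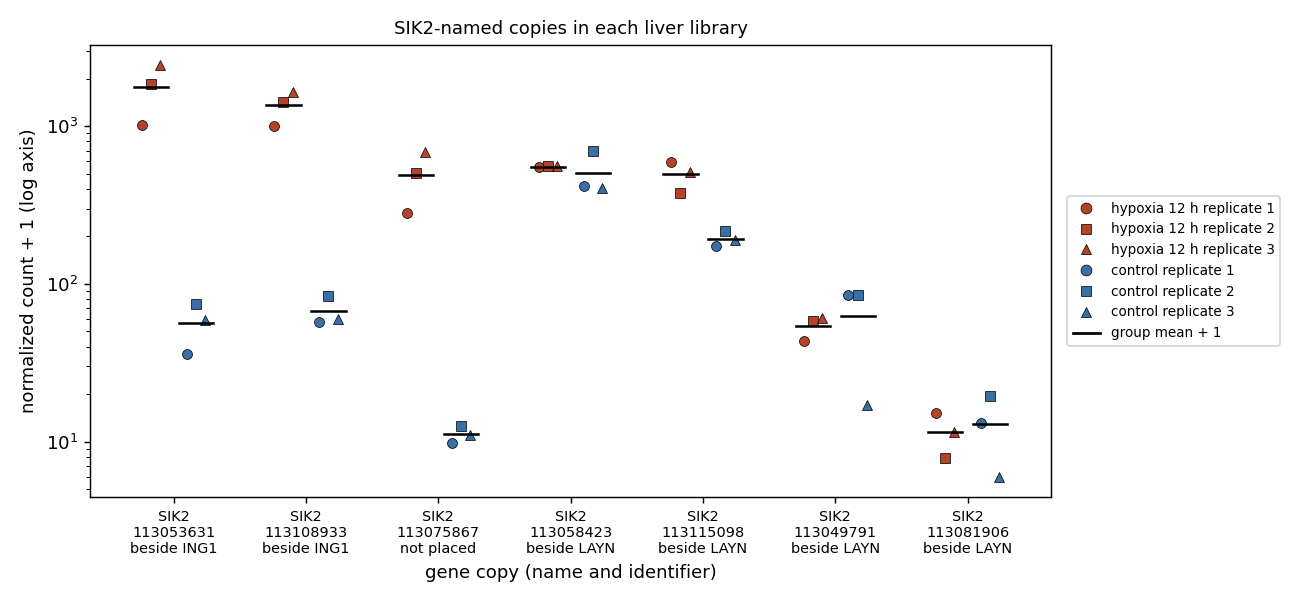
Normalized count plus 1 (log axis) of the 7 SIK2-named copies in each of the 3 hypoxia libraries (red, left) and 3 control libraries (blue, right), with a bar at each group mean. Copies are arranged by neighbouring gene. Hypoxia libraries of the copies beside Ing1 lie between 999 and 2431, above controls of 35.2 to 83.2, whereas the groups overlap for 3 of the 4 copies beside LAYN.

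The gene crem encodes activators and repressors that bind cAMP response elements. Of its 8 copies 7 were tested and 4 rose, where 1.83% of all tested genes rose. These are the 4 copies that stand beside PARD3 in the reference. Like that of the SIK2 copies, this grouping was made after the values were seen. CREM 113042552, outside it, did not pass the threshold although its difference of 2.01 lay within the range of these 4. CREM 113114083 had 202, 390 and 256 in hypoxia libraries and 103, 71.7 and 70.1 in controls, a difference of 1.75 ± 0.31. CREM 113120819 had 163, 267 and 185 in hypoxia libraries and 71.4, 80.9 and 75.1 in controls, a difference of 1.39 ± 0.28. CREM 113045401 showed the largest difference of the family, 2.18 ± 0.42, with 117, 172 and 199 in hypoxia libraries and 38.5, 54.3 and 19.0 in controls. CREM 113045097 had 66.2, 89.5 and 105 in hypoxia libraries and 27.5, 31.2 and 18.0 in controls, a difference of 1.74 ± 0.37. In each of the 4 the lowest hypoxia library was above the highest control, by a factor of 1.96 to 2.15, and hypoxia replicate 1 was the lowest of its group. Over all tested genes the groups stood apart for 24.6% in either direction, and for 12.4% with hypoxia higher.

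The remaining CREM copies were low, and the pseudogenes 113084481 and 113080790 among them are not placed on a chromosome. CREM 113042552 had 15.4, 25.2 and 18.7 in hypoxia libraries and 2.198, 5.78 and 5.005 in controls. Its groups did not overlap and its difference was 2.01 ± 0.57, which did not pass the threshold. It overlaps the long non-coding RNA CREM 113042553 in the reference, and the strand used in counting is not known, so reads of these 2 rows cannot be told apart with certainty. That RNA was at 5.91, 1.53 and 8.14 in hypoxia libraries and 6.59, 2.31 and 3.00 in controls. The pseudogene CREM 113084481 differed by 0.33 ± 0.65. Over the 8 copies CREM summed to 572, 953 and 779 in hypoxia libraries and 254, 249 and 194 in controls, a ratio of means of 3.31. The counts are per gene and hold no information on transcript forms, so ICER and full-length CREM are not distinguished.

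Among the 5 copies of creb1, the constitutive cAMP response factor, 0 passed the threshold. With 2.24% of all tested genes past it, that count says little. The copy that the reference names creb1a, CREB1 113044283, had 33.1, 45.9 and 35.8 in hypoxia libraries and 56.0, 33.5 and 51.0 in controls, a difference of -0.27 ± 0.36. CREB1 113110806 had 28.4, 35.9 and 22.8 in hypoxia libraries and 12.1, 28.9 and 8.01 in controls, a difference of 0.96 ± 0.54 with overlapping groups. Only CREB1 113053225 had groups that did not overlap, at 37.8, 57.3 and 48.8 in hypoxia libraries and 15.4, 35.8 and 30.0 in controls (0.86 ± 0.43). Groups did not overlap for 24.6% of all tested genes. The remaining copies, CREB1 113108775 and CREB1 113075942, had at most 7 reads in any library. CREB1 113053225 and 113108775 share the neighbours Klf7, ccnyl1, fzd5, PLEKHM3 and IDH1. The sum over the 5 copies averaged 123 ± 21.4 in hypoxia libraries and 95.5 ± 9.38 in controls (SD, n = 3 each), and the groups overlapped.

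The CRTC genes, the coactivators that SIK phosphorylate, had the smallest median difference of the families, 0.18, against 0.0043 over all tested genes. The threshold was passed by 0 of 10 tested copies. Since 2.24% of all tested genes passed it, that count says little. Among crtc1, Crtc1 113115991 had 109, 128 and 132 in hypoxia libraries and 114, 150 and 99.1 in controls (0.04 ± 0.27). CRTC1 113045899, crtc1a in the reference, had 100.4, 85.6 and 69.2 in hypoxia libraries and 47.3, 48.5 and 67.1 in controls. Its groups stood apart by a factor of 1.03, with a difference of 0.64 ± 0.31. Crtc1 113110701 had the largest crtc1 difference, 1.26 ± 0.69, but rested on 2, 3 and 2 reads in hypoxia libraries and 1, 0 and 0 in controls. It also overlaps another gene, 113110703, in the reference. Crtc1 113110766 had at most 3 reads in any library.

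CRTC2, the main CRTC of mammalian liver, moved in both directions among its 4 copies without a call. CRTC2 113059428 had 229, 264 and 234 in hypoxia libraries and 119.8, 217 and 185 in controls, a difference of 0.51 ± 0.28. Crtc2 113119353 was the only member whose hypoxia libraries all lay below its controls, at 54.3, 46.6 and 61.8 against 86.8, 106 and 83.1, a difference of -0.75 ± 0.29. CRTC2 113062067 and CRTC2 113115819 differed by 0.11 ± 0.28 and 0.20 ± 0.26. Of crtc3, crtc3 113106268 had 137, 181 and 142 in hypoxia libraries and 148, 139.9 and 132 in controls (0.12 ± 0.24). The other copy, crtc3 113051357, had 136, 163 and 171 in hypoxia libraries and 102, 156 and 127 in controls (0.30 ± 0.26). All 11 CRTC copies together averaged 1056 ± 42.1 in hypoxia libraries and 922 ± 89.2 in controls (SD, n = 3 each), a ratio of 1.14. The groups of that sum did not overlap, with a lowest hypoxia library of 1021 and a highest control of 1011.

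Both PGC-1 genes were higher after hypoxia in every copy, ppargc1a by far the most. PPARGC1A 113106421, ppargc1a in the reference, had 762, 242 and 475 in hypoxia libraries and 47.3, 27.7 and 19.0 in controls. It rose, with a difference of 3.88 ± 0.47 and a ratio of group means of 15.7. Its lowest hypoxia library, replicate 2, was still 5.11 times the highest control. The second copy, PPARGC1A 113051705, shares the neighbours DHX15 and adgra3. It had 60.3, 69.6 and 131 in hypoxia libraries and 11.0, 28.9 and 23.0 in controls, a difference of 2.02 ± 0.47 with groups that did not overlap, which did not pass the threshold. The 2 copies ordered the hypoxia libraries differently, since replicate 1 was the highest for the first and the lowest for the second.

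PGC-1β, encoded by ppargc1b, is the relative linked in mammalian liver to lipid synthesis and mitochondrial function. Ppargc1b 113114281 had 591, 331 and 491 in hypoxia libraries and 173, 192 and 205 in controls, and it rose by 1.27 ± 0.27. It overlaps another gene, 113113333, in the reference. The strand used in counting is not known, so reads of these 2 genes cannot be told apart with certainty. PPARGC1B 113057868 had 354, 252 and 344 in hypoxia libraries and 123, 169.9 and 196 in controls. Its difference was 0.96 ± 0.27 and did not pass the threshold, although its groups did not overlap. Hypoxia replicate 2 was the lowest hypoxia library in 3 of the 4 PGC-1 copies. In the same library the summed exocrine pancreas markers were the highest, at 161040, and the summed hepatocyte markers the lowest, at 1260900. The part of that in the PGC-1 values was not tested. PPARGC1A 113051705, PPARGC1B 113057868, CREM 113042552, CREB1 113053225 and CRTC1 113045899 are given library by library as a choice made after their values were seen.

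**Figure D3:**
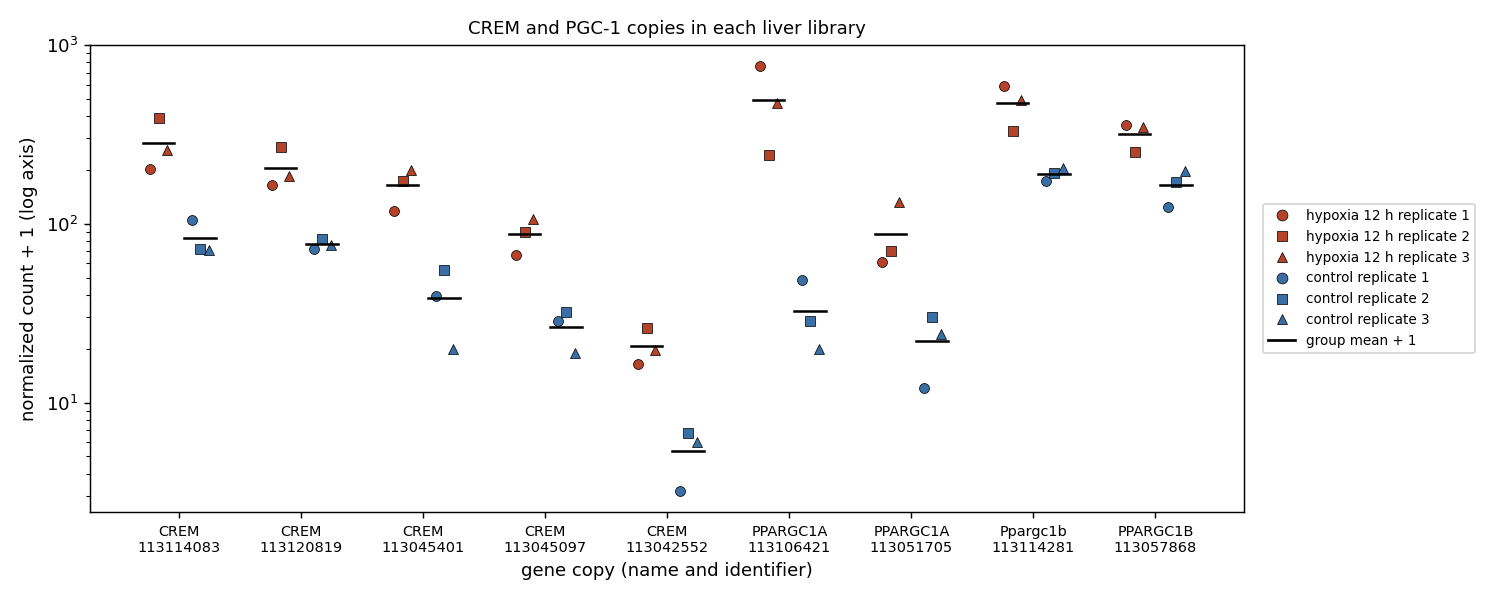
Normalized count plus 1 (log axis) of the CREM copies with a hypoxia mean above 6 and of all PGC-1 copies in the 3 hypoxia libraries (red, left) and 3 control libraries (blue, right), with a bar at each group mean. In all 9 copies shown every hypoxia library lies above every control, as for 12.4% of all tested genes. The cut on the hypoxia mean favours CREM copies that are high there. The tested CREM copies below it, 113042553 and 113084481, have overlapping groups. PPARGC1A 113106421 stands widest apart, at 242 to 762 above 19.0 to 47.3.

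The calls differed in how far they rested on single libraries. SIK2 113053631, SIK2 113108933, SIK2 113075867 and PPARGC1A 113106421 passed the threshold in each of 15 alternative fits. The 4 CREM copies, SIK2 113115098 and Ppargc1b 113114281 missed the threshold in some of those fits. Each of them missed it in some fit with 1 library left out. As the groups of each did not overlap, leaving out 1 library could not change the direction. Members past the threshold then numbered 4 without hypoxia replicate 1, 6 without hypoxia replicate 2 and 4 without hypoxia replicate 3. Without control replicates 1, 2 and 3 they numbered 5, 10 and 4. With normalized counts of all copies summed per gene name before the fit, sik2 (2.39 ± 0.28), crem (1.70 ± 0.24) and ppargc1a (3.35 ± 0.37) passed the threshold, where 2.09% of 17734 summed genes did. In that fit ppargc1b was at 1.14 ± 0.24 and creb1, crtc1, crtc2 and crtc3 at 0.35, 0.27, 0.17 and 0.20, all short of it. The sik2 value of that fit includes the copies beside Ing1, whose identity as SIK2 is uncertain.

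Other genes of the pathway were read against the share of all tested genes called by limma, 1.83% as higher and 0.417% as lower, and against the median of 0.0043 over all of them. Their lists were chosen with earlier results of these data known, so the counts are a description. Upstream of the members, of 92 copies in a list of receptors, G proteins, adenylyl cyclases and protein kinase A subunits, 73 were tested, 1 rose and 0 fell, with a median of 0.08, so that the count was near the overall share. The regulatory subunit PRKAR2A 113093969 rose by 1.42 ± 0.26 (adjusted p = 0.027), at 274, 193 and 282 in hypoxia libraries and 94.5, 84.4 and 96.1 in controls. Its call was lost without hypoxia replicate 1 or 3 or control replicate 1 or 3, with adjusted p up to 0.14. The glucagon receptor copy Gcgr 113067670 had 1860, 886 and 1630 in hypoxia libraries and 2405, 2449 and 2448 in controls, a difference of -0.81 ± 0.31 (adjusted p = 0.22). Gcgr 113053690 differed by 0.20 ± 0.32 (adjusted p = 0.78). The low copy Gcgr 113058548 had 15.4, 6.88 and 5.70 in hypoxia libraries and 1.10, 3.47 and 2.002 in controls, a difference of 1.65 ± 0.67 (adjusted p = 0.23), and the fourth tested copy, Gcgr 113081138, was at -0.26 ± 0.83 (adjusted p = 0.90). The 7 tested copies of the catalytic subunit gene prkaca spanned -0.72 to 0.71, with a lowest adjusted p of 0.31.

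Phosphodiesterases, which break down cAMP, had mostly positive differences and a single call. Of 33 copies 32 were tested and 28 had a difference above 0, against 20601 of 41045 over all tested genes. The list median was 0.98, and 1 copy rose and 0 fell, a count near the overall share. The riser was PDE4B 113038091, at 196, 343 and 361 in hypoxia libraries and 75.8, 107.5 and 66.1 in controls (1.82 ± 0.32, adjusted p = 0.025, and up to 0.11 with 1 library left out). That call was lost without hypoxia replicate 2 or 3 or control replicate 1 or 3. The 10 tested pde4d copies spanned -0.41 to 2.19 and 0 were called (lowest adjusted p = 0.16).

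In a list of LKB1 (stk11) and its partners, AMPK subunits and class IIa histone deacetylases, which SIK phosphorylate, 49 of 51 copies were tested and 0 passed the threshold by limma, with a median of -0.10. Since 2.24% of all tested genes passed it in either direction, a count of 0 in a list of this length says little. At an unadjusted p under 0.05 limma listed 10 of them, 4 of these lower after hypoxia, against 18.6% of all tested genes. DESeq2 on the recovered reads called 2 and edgeR 0. The smallest p belonged to the deacetylase gene hdac9b 113060185, at 80.3, 313 and 103 in hypoxia libraries and 36.3, 34.7 and 48.0 in controls (1.78 ± 0.49, adjusted p = 0.11).

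Some relatives of CREB held a larger difference than the largest creb1 difference of 0.96, and others did not. Of 46 tested copies of related factors and coactivators 4 rose and 0 fell, where 1.83% of all tested genes rose, with a median of 0.31. The bZIP factor CREB5 113120056 had 1090.4, 401 and 672 in hypoxia libraries and 6.59, 16.2 and 11.0 in controls, a difference of 5.84 ± 0.44 (adjusted p = 0.00035). CREB5 113062268 had 1663, 481 and 1009 in hypoxia libraries and 13.2, 41.6 and 20.02 in controls (5.32 ± 0.52, adjusted p = 0.0012). In both, as in PPARGC1A 113106421, hypoxia replicate 1 was the highest and replicate 2 the lowest of the hypoxia libraries. CREB3L1 113106105 rose by 2.85 ± 0.53 (adjusted p = 0.03) and CREBRF 113038185 by 1.77 ± 0.35 (adjusted p = 0.041). Both of these calls were lost without any 1 library except control replicate 2, with adjusted p up to 0.14 and 0.16. The 4 tested ep300 and 13 crebbp copies, the acetyltransferases that CREB recruits, spanned -1.84 to 1.05 and 0 were called (lowest adjusted p = 0.24). Both ends of that range were low crebbp copies. The pseudogene 113096139 had means of 0.79 in hypoxia and 4.59 in control libraries, and 113067627 had 9.30 and 4.88. The ep300 copies spanned -0.56 to 0.0015.

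Genes known as CREB and CRTC2 targets in mammalian liver were the list with the most calls. Of 37 copies 33 were tested, 16 rose and 0 fell, where 1.83% of all tested genes rose, and the median was 1.81. Because the list was chosen with earlier results of these data known, that count is a description and evidence of nothing further. The gluconeogenic enzyme gene PCK1 113081964 had 1550.0, 2415 and 6791 in hypoxia libraries and 8.79, 40.5 and 51.0 in controls (6.73 ± 0.69, adjusted p = 0.0016). PCK1 113050105 rose as well, by 6.48 ± 0.69 (adjusted p = 0.002). The copy Pck1 113066092, had 2330, 1201 and 2554 in hypoxia libraries and 1407, 2960 and 851 in controls, and its difference of 0.34 ± 0.47 was not called (adjusted p = 0.74). The glucose-6-phosphatase copy G6PC 113056355 had 11389, 14886 and 20010 in hypoxia libraries and 2594, 5993 and 2887 in controls (2.08 ± 0.42, adjusted p = 0.042). Its call was lost without any 1 library except control replicate 2 (adjusted p up to 0.17). G6PC 113111951 had 2395, 3018 and 3242 in hypoxia libraries and 686, 1026 and 589 in controls (1.94 ± 0.28, adjusted p = 0.0099). It missed the threshold without hypoxia replicate 3 or control replicate 3 (adjusted p up to 0.062). The copy g6pc 113056356 differed by 1.54 ± 0.67 (adjusted p = 0.26), and the low copy G6PC 113047171 by 0.69 ± 0.71 (adjusted p = 0.64). The phosphatase gene dusp1-a had the smallest p-values of the list and rose by 5.75 ± 0.45 for 113113377 (adjusted p = 0.0004) and 5.34 ± 0.44 for 113113503 (adjusted p = 0.00056). The period gene PER1 113051396 rose by 3.16 ± 0.32 (adjusted p = 0.0015). With 1 library left out 10 of the 25 calls over the 6 lists held in every fit, 8 of them in this list and the others CREB5.

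Of 67 copies of partners and targets of PGC-1, 64 were tested, 3 rose and 0 fell, where 1.83% of all tested genes rose, with a median of 0.33. The insulin-regulated factor foxo1a, a partner of PGC-1α in gluconeogenesis, rose in 2 copies. Copy 113115319 had 760, 624 and 859 in hypoxia libraries and 274, 201 and 266 in controls (1.59 ± 0.24, adjusted p = 0.012). Copy 113098257 rose by 1.74 ± 0.31 (adjusted p = 0.025). The corepressor gene NRIP1 113110006 rose by 1.62 ± 0.31 (adjusted p = 0.034). These 3 calls were lost without hypoxia replicate 1 or 3, 113098257 and NRIP1 also without control replicate 1, and NRIP1 also without control replicate 3 or hypoxia replicate 2, with adjusted p up to 0.15. Of the mitochondrial regulators, the 2 tfam copies differed by -0.78 and -0.44, the 4 nrf1 copies by 0.20 to 0.63 and the 4 copies of pprc1, a relative of PGC-1, by 0.62 to 1.28, with 0 called.

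**Figure D4:**
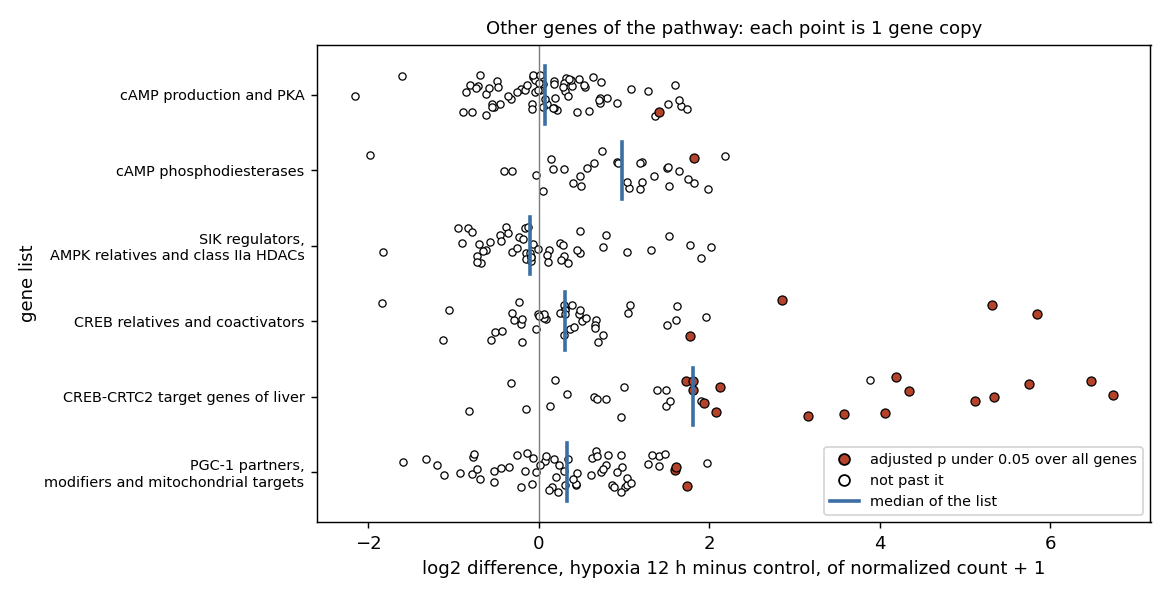
Log2 difference (hypoxia 12 h minus control, log2 of the normalized count plus 1) of each tested copy in 6 lists of other pathway genes, with the list median as a blue line. Filled points passed an adjusted p of 0.05 over all genes. The target list has 16 filled points and a median of 1.81, whereas the list of SIK regulators has 0 and a median of -0.10.

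Profiles across the 6 libraries were compared with those of 30175 other named genes with a mean of at least 5, by the root mean square (RMS) difference of log2 values centred on each gene's own mean. Nearest to SIK2 113075867 were SIK2 113053631 at an RMS of 0.31, the AP-1 gene junb 113055311 at 0.44 and dusp1-a 113113377 at 0.47. The gene junb had 293, 592.5 and 747 in hypoxia libraries and 12.1, 31.2 and 16.0 in controls, and like the SIK2 copy was lowest in replicate 1 of the hypoxia libraries. Nearest to PPARGC1A 113106421 were nfil3 113050897 at 0.36, TRAK1 113099662 at 0.45 and ZNF233 113120030 at 0.45, and all 3 were highest in hypoxia replicate 1 and lowest in hypoxia replicate 2. Nearest to CREM 113045401 were Fam102a 113052744 at 0.18, Csrnp3 113066306 at 0.19 and sox7 113063294 at 0.20. Nearest to Crtc2 113119353 were RABL6 113073251 at 0.03, NDUFA11 113055150 at 0.07 and GTF2E2 113107578 at 0.07. These are the nearest of many genes over 6 libraries, and the measure says nothing of shared control.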

How the data were processed

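The submitters' processing notes name TopHat2 2.1.1 and Bowtie2 2.2.8 for the 6 liver libraries. For read filters, genome build, annotation and counter the sources used here give nothing. The deposited signal is named FPKM, but every value was a whole multiple of 1 step per library (100% of values within 0.01 of a read). It is therefore the authors' read count divided by a size factor, and whole reads were recovered. The authors' deposited table adds, for every gene, p-values before and after adjustment and the log2 fold change, from an unnamed test. Of 47544 identifiers 46576 were NCBI gene identifiers, all found in the goldfish table ASM336829v1, used for names, gene types and neighbouring genes only.

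Limma 3.58.1 (R 4.3.3) with a mean-variance trend was run on log2(normalized count + 1) and no covariate, for genes with a mean of at least 1, with Benjamini-Hochberg adjustment. The design set edgeR first if the table held unscaled counts. It held scaled ones, so limma was kept and edgeR 4.0.16 and DESeq2 1.42.0 on recovered reads were alternatives. The fit was checked on simulated counts with known differences. These had the same dispersion for every gene, so the check says little about error rates in these libraries. The other alternatives were 2 pseudocounts, 2 filters, 2 normalizations, copies summed by name, a replicate block and each library left out.

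Library values are printed for each member copy past the threshold, and for the copy with the highest mean and the one with the largest difference in each gene. From each of 6 pathway lists up to 4 called genes of smallest p, or the 1 of smallest p where none was called, are named, with pck1, g6pc, gcgr, prkaca and pde4d always given. Lists take rows by name with or without a copy letter, so that Fosb counts with fos. Profile likeness was ranked for 1 copy of each of 4 families, the one of largest difference with a mean of at least 5. Members, lists and rules were chosen with earlier results of these data known. In 7 cell type marker lists, hepatocyte markers past the threshold numbered 2 higher and 3 lower of 38 tested, and endothelial markers 1 higher of 16. Over all tested genes 1.83% were called higher and 0.417% lower. The lists for exocrine pancreas, islet, red blood cells, leukocytes, and bile duct with stellate cells had 0. In lists of this length 0 says little, and the exocrine median difference was 2.76 over 15 tested copies. No sequence is printed, as no sequence table was used here.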

Additional observations from a re-analysis of the deposited data

How the results depend on the processing

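All 10 called members kept a positive difference in each of 15 alternative fits. The groups of each did not overlap, so leaving out 1 library could not change the sign. The replicate block and the 2 filters leave the difference itself unchanged. The shared sign therefore says little about stability. Calls varied with the libraries. Leaving out 1 library gave 4 to 10 called members, 322 to 2360 genes overall (921 with all libraries) and 10 to 27 pathway genes (25 with all). Control replicate 2 was the library whose absence raised the overall count. DESeq2 on recovered reads called 2733 genes, 1671 higher and 1062 lower, so 61.1% were higher, against 750 and 171 (81.4%) by limma. It called 12 members, adding PPARGC1A 113051705 and PPARGC1B 113057868, whereas edgeR called 8, without CREM 113045097 and Ppargc1b 113114281. Summing copies by product name gave 371 called of 17734. The authors' deposited table lists 11 members with an adjusted p under 0.05, all higher and including the 10. Counting protein-coding copies only gave 9 called members, and adding the zgc:66101 rows gave 10, both chosen after seeing the data. With the replicate number as a block 4 members, 415 genes and 15 pathway genes were called. Same-numbered libraries did not deviate together (correlations of -0.07, -0.19 and -0.03 for pairs 1 to 3), so the number is not taken as a pairing. The causes of these shifts were not tested. Of 10 members with a mean under 20, 8 were tested and 0 called, against 10 called of 25 at or above it. Their median differences were 0.42 and 0.96. That mean is over all 6 libraries, so copies high only after hypoxia enter the upper group through those libraries. SIK2 113075867, with means of 490 in hypoxia and 10.1 in control libraries, is such a copy. The split is therefore not independent of the difference. With 2.24% of all tested genes called, 0 of 8 says little. The part of depth was not tested.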
